A study of Mus musculus with 4 samples.

Results

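Fatty acid uptake and oxidation was followed through 10 genes of mouse 3D engineered muscle: Lpl, Angptl4, Cd36, Fabp3, Fabp4, Cpt1a, Cpt1b, Cpt2, Acadl and Acadm. They were chosen by name, and all 10 were on the array, with 15 of its 39429 probes and 10 of its 31893 gene names. Total RNA of engineered muscle, a tissue built from muscle cells in culture, had been labelled with Cy3 and hybridised to 4 single-colour arrays, 1 for each of 4 groups. The groups were tissue 5 h after 30 min of acute EPS, tissue at 5 h with no acute EPS, tissue at 0 min after 30 min of acute EPS, and tissue at 0 min with no acute EPS. The labels expand EPS as electrical plus stimulation, read here as electrical pulse stimulation, a way to make muscle cells contract. They name skeletal muscle of mouse in every group. The labelling protocol speaks of leukocyte RNA, whereas titles, tissue field and extraction protocol speak of engineered muscle. The source of the cells, any pooling of tissues and the strain are not given in the sources used here.

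With 1 array per group there was no spread within a group. No test between groups was run (EPS and time fitted as added terms leave 1 degree of freedom, and that fit was left out), and every difference below describes these 4 arrays. The 4 arrays lay on 1 slide, so position on the slide and group cannot be told apart. In bulk tissue, fewer cells of a type and less RNA per cell cannot be told apart either. A level is the log2 of a probe's processed signal minus the log2 of that array's 75th percentile, and levels were compared between arrays for the same probe only. Differences are given in log2 units, and a size rule of 1.5-fold stood in for a test. Probes printed 10 times gave a technical error. For each difference, the spot error is the 95th percentile of the SD between spots over the 50 such probes nearest in level. It describes repeated spots of the same labelled RNA and says nothing of how tissues vary.

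As background, lipoprotein lipase, encoded by Lpl, frees fatty acids from circulating triglycerides at the capillary wall, and ANGPTL4 is a secreted protein that inactivates it. CD36 helps long-chain fatty acids across the cell membrane, and the binding proteins FABP3 and FABP4 carry them inside the cell. The carnitine palmitoyltransferases CPT1 and CPT2 pass long-chain acyl groups into mitochondria, where the dehydrogenases ACADL and ACADM catalyse the first step of beta-oxidation. Many of these genes are known targets of the PPARs, nuclear receptors that respond to fatty acids and bind paired copies of the half-site AGGTCA.

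Promoters were searched for that half-site because all the members belong to pathways that PPARs are known to control. RefSeq promoter sequences (GRCm38.p6), 250 bases before to 50 bases after the start site, were matched for 6 of the 10 members: Cd36, Fabp3, Cpt1a, Cpt2, Acadl and Acadm. Lpl, Angptl4, Fabp4 and Cpt1b were not matched. The half-site AGGTCA, read on both strands, was found in the promoters of Cd36, Cpt1a and Acadm, 3 of 6, against 16.3% of 32851 promoters in the table. In all 3 it lies as its reverse complement TGACCT, shown in capitals, 228 bases before the start in Cd36, 94 in Cpt1a and 249 in Acadm.
Cd36, chr5:17835847-17836146, minus strand: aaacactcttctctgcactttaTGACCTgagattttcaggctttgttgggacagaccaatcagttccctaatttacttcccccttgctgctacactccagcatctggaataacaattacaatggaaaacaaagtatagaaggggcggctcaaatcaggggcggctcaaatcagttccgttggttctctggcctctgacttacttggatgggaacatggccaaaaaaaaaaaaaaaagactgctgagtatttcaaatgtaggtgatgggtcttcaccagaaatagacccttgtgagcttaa
Cpt1a, chr19:3323051-3323350, plus strand: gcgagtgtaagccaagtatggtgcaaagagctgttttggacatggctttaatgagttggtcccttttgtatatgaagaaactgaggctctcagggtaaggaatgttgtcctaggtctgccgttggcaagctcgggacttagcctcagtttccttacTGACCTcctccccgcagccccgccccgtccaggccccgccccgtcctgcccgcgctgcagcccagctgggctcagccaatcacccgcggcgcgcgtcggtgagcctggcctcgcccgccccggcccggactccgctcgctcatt
Acadm, chr3:153944594-153944893, minus strand: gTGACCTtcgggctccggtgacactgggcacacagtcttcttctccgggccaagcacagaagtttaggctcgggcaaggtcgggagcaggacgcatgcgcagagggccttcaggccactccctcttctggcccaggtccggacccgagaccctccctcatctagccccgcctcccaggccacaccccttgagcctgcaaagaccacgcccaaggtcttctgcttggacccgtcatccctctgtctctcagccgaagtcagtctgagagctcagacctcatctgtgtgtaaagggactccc
The repeat AGGTCANAGGTCA, a form that PPARs are known to bind, was in 0 of the 6 promoters and in 0.0396% of all promoters. The letters ACGTG, the core of hypoxia response elements, were in 0 of 6 and in 19.6% of all. A match describes letters, not a bound site, and these windows leave out most regulatory sequence.

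Lpl, Fabp3, Cpt1a, Cpt1b and Cpt2 had a pair of probes each, and some pairs gave different directions. The brightest probe stands for the gene in counts and figures. The sequences of the pairs for Fabp3 and Cpt2 show the contrast, with AATAAA, the letters of a common polyadenylation signal, in capitals. Such letters were in 5 of the 15 member probes, against 12.6% of all probes. Both Fabp3 probes are among the 5 and hold the same copy.
Fabp3, stretch shared by both probes, chr4:129992671-129992700 (mm9), plus strand: tgctccaaggtcAATAAAgcagaaccaagg
Cpt2, brighter probe, chr4:107576591-107576620 (mm9), minus strand: tgtttaaatagaAATAAAcccagtgttgct
Cpt2, dimmer probe, chr4:107580355-107580384 (mm9), minus strand: attgtgaatccctcagaaatccaggcacat
The Fabp3 probes started 9 bases apart on the transcript and shared 51 bases, so they are nearly 1 measurement. The Cpt2 probes started 1377 bases apart, those of Lpl 2144, those of Cpt1a 1314 and those of Cpt1b 270.

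The arrays differed in depth of signal. The 75th percentile of the processed signal was 1491.9 with EPS and 1280.3 without EPS at 5 h. At 0 min it was 1093.0 with EPS and 1362.5 without EPS. A level takes out that percentile, so a difference of levels can depart from the difference of signals. At 5 h and 0 min after EPS, the processed signal was 1485 and 1471 for Cd36, and 26343 and 26450 for Fabp3. Per array, 19164 to 19420 genes were well above background. All 14 skeletal muscle markers were well above background on all 4 arrays, with summed levels of 9.65, 9.75, 10.06 and 9.85 in the order 5 h with EPS, 5 h without EPS, 0 min with EPS and 0 min without EPS. Of the adipocyte markers, 8 of 10, Adipoq and Lep among them, were well above background on no array, and the summed level was -3.86, -3.51, -2.23 and -3.36 in that order. Most of the higher sum with EPS at 0 min came from Plin1, and without that gene the summed level was -3.92, -3.55, -3.28 and -3.41. Of the endothelial markers, 5 of 10, including Cdh5 and Tek, were well above background on no array, with summed levels of 1.05, 1.67, 1.85 and 1.74. Of the leukocyte markers, 3 of 10 (Ptprc, Lyz2 and C1qa) were well above background on no array, with summed levels of 3.39, 3.22, 3.09 and 3.19. Itgam and Cd14 carried most of that sum, which was -0.82, -0.70, -0.87 and -0.86 without them. Of the fibroblast markers, 9 of 10 were well above background on all 4 arrays. All 10 members were well above background on all 4 arrays.

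The first question was whether EPS altered these genes. Angptl4 was higher after EPS at both times, 1.61-fold at 5 h and 1.56-fold at 0 min, while the genes of the oxidation steps stayed within 1.5-fold. At 5 h, 1 of 10 members, Angptl4, was at least 1.5-fold higher and 0 were lower, against 2.06% higher and 2.96% lower of 18542 measured genes. With quantile normalization that background was 453 genes higher and 413 lower, and with median centring 519 and 372, against 382 and 548 as reported. At 0 min, 2 members, Angptl4 and Fabp4, were higher and 0 lower, against 2.01% and 3.34% of 18589 genes. At 2-fold no member was past the size at either time, where 1.21% of genes were at 5 h and 1.34% at 0 min. At a ratio 25% above 1 (higher over lower) the members were 2 at 5 h (Angptl4 and Cpt1b) and 3 at 0 min (with Fabp4), all of them higher, against 17.8% and 16.9% of genes in either direction, of which 1156 of 18542 and 1334 of 18589 genes were higher. The median difference of the 10 members was 0.03 at 5 h and 0.05 at 0 min (-0.015 with quantile normalization), beside -0.03 and 0.02 over all genes.

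**Figure D1:**
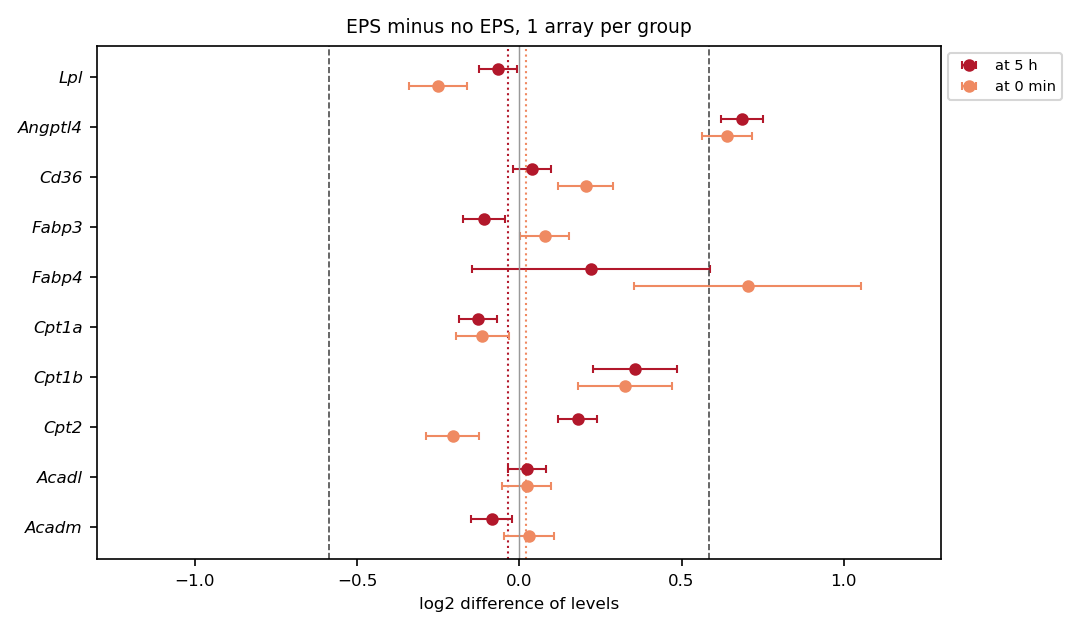
Log2 difference of level, EPS minus no EPS, for the 10 members at 5 h and at 0 min. Circles are differences between 2 arrays, bars are the spot error on either side, dotted lines the median of all genes and dashed lines 1.5-fold. Angptl4 lies past 1.5-fold at both times and Fabp4 at 0 min, with a wide bar for Fabp4. The signs of Lpl and Acadm at 5 h turn with median centring, those of Acadl at 5 h and of Fabp3, Acadl and Acadm at 0 min with quantile normalization, and those of Fabp4 at 5 h and Acadl at 0 min with normexp.

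The second question was how the genes differed between 5 h and 0 min. Angptl4 was the 1 member at least 1.5-fold higher at 5 h, both after EPS and without it, and 0 members were lower by that size. Background shares were larger here. After EPS, 7.9% of 18468 genes were higher and 12.5% lower, and without EPS 6.6% of 18486 were higher and 9.38% lower. Median centring turned those splits to 2589 higher and 1332 lower after EPS, against 1459 and 2307 as reported, and to 1928 and 1174 without EPS, against 1220 and 1734. It moved the median of all genes to 0.10 after EPS and to 0.11 without EPS, against -0.08 and -0.02 as reported. At a ratio 25% above 1, 6 members were past the size after EPS, with Angptl4 higher and Lpl, Cd36, Fabp3, Fabp4 and Acadm lower, against 46.3% of genes. Without EPS 3 did, with Angptl4 higher and Lpl and Cpt2 lower, against 37.7%. No member differed by 2-fold, where 6.04% of genes did after EPS and 4.7% without. The members' median was -0.31 after EPS and -0.25 without EPS, both below the median of all genes, and it kept its sign under each scaling tried.

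**Figure D2:**
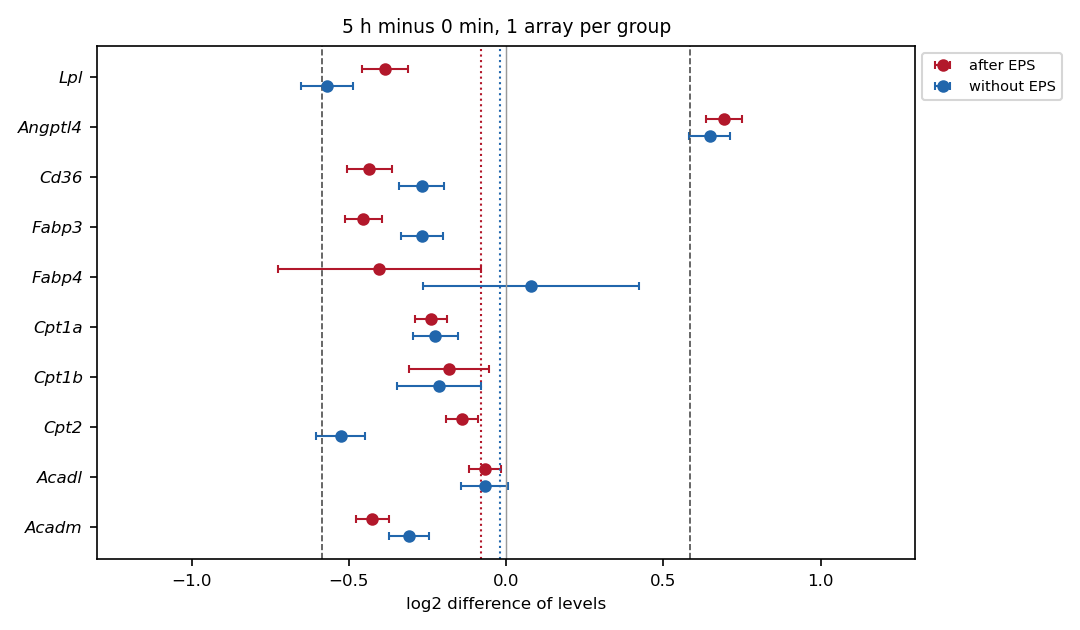
Log2 difference of level, 5 h minus 0 min, for the 10 members after EPS and without EPS. Circles are differences between 2 arrays, bars the spot error on either side, dotted lines the median of all genes and dashed lines 1.5-fold. Angptl4 is the only member past 1.5-fold, on the higher side, and most others lie below the median of all genes. Median centring turns the sign of Acadl in both comparisons and of Cpt2 after EPS.

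Both 5 h levels lay below both 0 min levels for 7 of the 10 members: Lpl, Cd36, Fabp3, Cpt1a, Cpt2, Acadl and Acadm. The same was seen for 37.9% of 18107 genes. With median centring it was 5 members, without Cpt2 and Acadl, and 23.1% of genes. A level lower at 5 h in both comparisons was found for 8 members, Cpt1b included, and for 44.3% of genes, and with median centring for 6 members and 28.2% of genes. In the same comparisons the skeletal muscle markers had medians of -0.39 after EPS and -0.13 without EPS (0.01 with median centring), and 0 of 14 were past 1.5-fold. The fibroblast markers had medians of -0.57 and -0.13 (0.00 without EPS with median centring), with 4 of 9 lower past 1.5-fold after EPS, and 3 lower and 1 higher without EPS. The 4 measured endothelial markers had medians of -0.43 and -0.12 (0.02 without EPS with median centring). The cardiac markers had medians of -0.59 over 3 measured genes after EPS and -0.53 over 4 without EPS. The part of these cell types in the members' values was not tested.

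Lpl, the lipase itself, had levels of -0.46 on the EPS array and -0.39 on the no EPS array at 5 h, against -0.07 with EPS and 0.18 without EPS at 0 min. The 0 min arrays were both above the 5 h arrays, and at each time the EPS array was the lower. At 0 min the EPS array was lower by a log2 difference of -0.25 (spot error 0.09). At 5 h the difference was -0.07 (spot error 0.06), and its sign turned with median centring. Between times Lpl was 1.31-fold lower at 5 h after EPS and 1.48-fold lower without EPS, the largest lower value of any member. The dimmer Lpl probe gave the same directions, with -0.23 at 5 h and -0.41 at 0 min for EPS, and -0.37 after EPS and -0.55 without EPS for time.

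Angptl4, the inhibitor of that lipase, had processed signals of 43495 after EPS and 23208 without EPS at 5 h, and of 19711 after EPS and 15773 without EPS at 0 min. Its levels were 4.87 and 4.18 at 5 h with and without EPS, and 4.17 and 3.53 at 0 min with and without EPS. The EPS array at 5 h was the highest and the no EPS array at 0 min the lowest. The no EPS array at 5 h and the EPS array at 0 min differed by 0.01, within the spot error of 0.05. The EPS difference was 0.69 at 5 h and 0.64 at 0 min (spot error 0.06 and 0.08), and the time difference was 0.69 after EPS and 0.65 without EPS (spot error 0.06 and 0.07). Angptl4 had thus the reverse order of Lpl over the 4 arrays, apart from the pair that did not differ beyond the spot error. With median centring the order of the Lpl levels at 5 h turned, with an EPS difference of 0.02. Cpt1a had the same order as Lpl, and the share of all genes with that order was not counted. With quantile normalization the EPS difference of Angptl4 at 0 min and its time difference without EPS were both 0.57, just under the size rule.

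**Figure D3:**
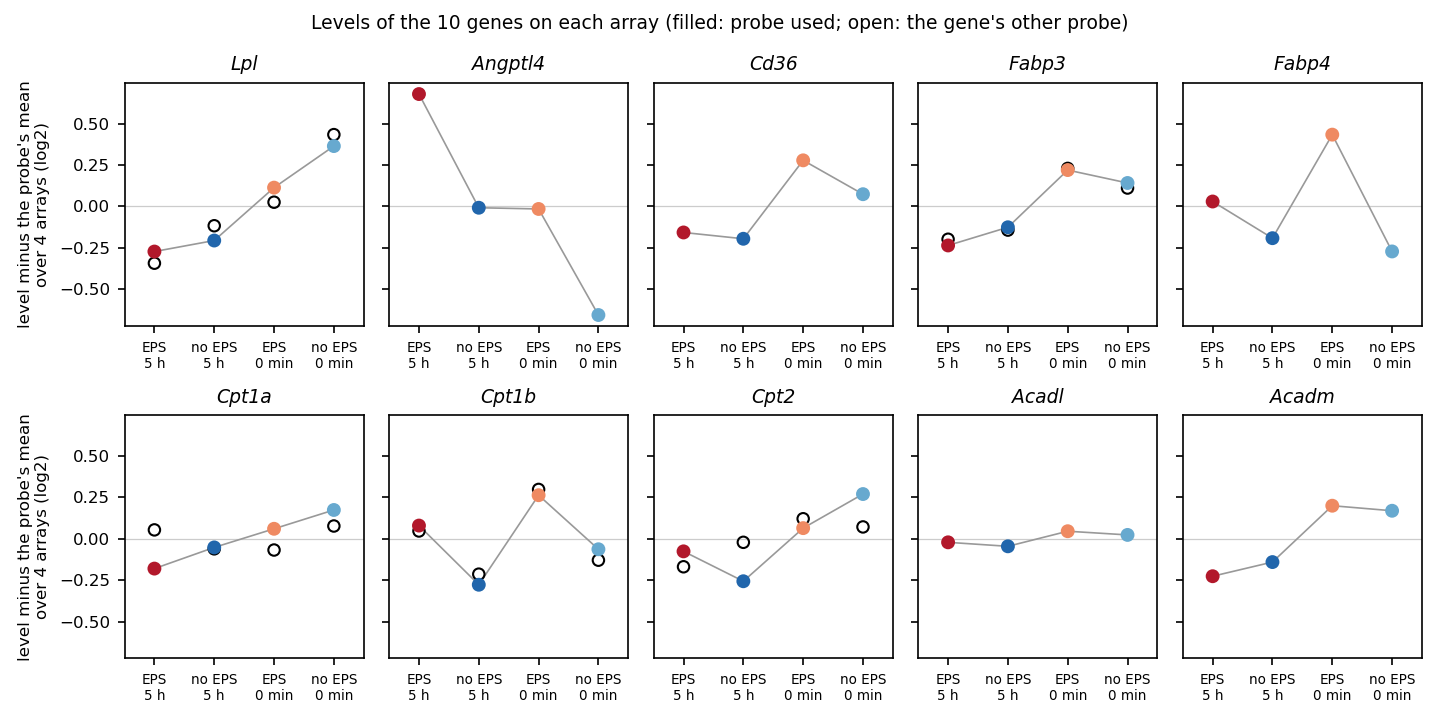
Level of each of the 10 members on the 4 arrays (log2 units), after subtraction of the probe's mean over the 4 arrays. Filled points are the probe used, 1 per array and joined by lines, and open points the gene's other probe. Angptl4 is highest with EPS at 5 h and lowest without EPS at 0 min, while Lpl and Cpt1a run the other way. With median centring the order of the Lpl levels at 5 h turns. The open points of Cpt1a and Cpt2 depart from the filled ones.

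Cd36, the membrane protein of fatty acid uptake, had levels of -0.01 with EPS and -0.04 without EPS at 5 h, against 0.43 with EPS and 0.22 without EPS at 0 min. The EPS array at 0 min was the highest, and the 5 h arrays did not differ beyond the spot error of 0.06. The EPS difference was 0.20 at 0 min (spot error 0.09), and the time difference was -0.43 after EPS and -0.27 without EPS. Cd36 is also made by endothelial cells, macrophages and adipocytes, whose summed marker levels are given above; their part in its values was not tested. Cd36 was read from 1 probe.

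Fabp3, the fatty acid carrier of heart and skeletal muscle, had levels of 4.14 with EPS and 4.25 without EPS at 5 h, against 4.60 with EPS and 4.52 without EPS at 0 min. Both 5 h arrays were below both 0 min arrays, by a difference of -0.45 after EPS and -0.27 without EPS (spot error 0.06 and 0.07). Its EPS difference was -0.11 at 5 h and 0.08 at 0 min, the second at the edge of its spot error of 0.08 and below 0 with quantile normalization. The overlapping second probe gave -0.06 and 0.12 for these, and -0.43 and -0.25 for time.

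Fabp4, the carrier best known from adipocytes and also found in macrophages and capillary endothelium, had low signals. Its processed signal was 42.6 with EPS and 31.4 without EPS at 5 h, and 41.3 with EPS and 31.6 without EPS at 0 min. On the level scale that was -5.13 and -5.35 at 5 h, with and without EPS, and -4.73 and -5.43 at 0 min, with and without EPS. The EPS array at 0 min stood above the others, 1.63-fold higher than no EPS at 0 min, a log2 difference of 0.70 against a spot error of 0.35. With normexp background correction it was 0.38, under 1.5-fold. Among the adipocyte markers, Plin1, a coat protein of lipid droplets, was well above background on the EPS array at 0 min and on no other. Its processed signal was 120 there, against 4.39 without EPS at 0 min, and it was at least 7.37-fold higher; its part in the Fabp4 value was not tested. The remaining Fabp4 differences were 0.22 for EPS at 5 h and 0.08 for time without EPS, each within its spot error, and -0.40 for time after EPS (spot error 0.32).

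Cpt1a, the liver form of the outer-membrane transferase that limits the entry of long-chain acyl groups, had levels of 0.80 with EPS and 0.93 without EPS at 5 h, against 1.04 with EPS and 1.16 without EPS at 0 min. Each step in that order was larger than its spot error. Cpt1a is the 1 member printed 10 times on each array, so its own spots could be read. They ranged from 0.74 to 0.85 with EPS and from 0.87 to 0.97 without EPS at 5 h, with no overlap. At 0 min they ranged from 0.99 to 1.08 with EPS and from 1.04 to 1.21 without EPS, and overlapped. The EPS difference was -0.13 at 5 h and -0.11 at 0 min, and the time difference was -0.24 after EPS and -0.23 without EPS. The dimmer Cpt1a probe went the other way for EPS at 5 h (0.11) and for time after EPS (0.12), and the same way for EPS at 0 min and for time without EPS (-0.14 each).

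**Figure D4:**
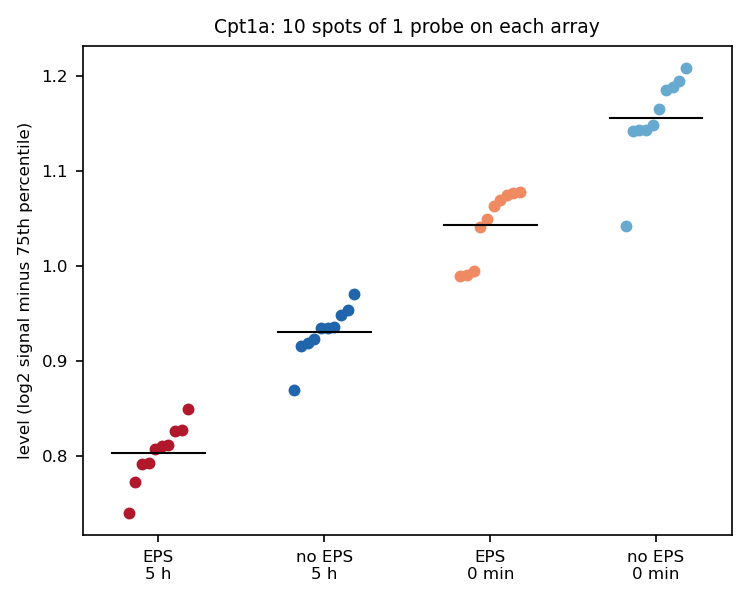
Level of the 10 spots of the brighter Cpt1a probe on each of the 4 arrays, with their mean. The spots of 1 array are technical repeats of 1 labelled RNA. The 5 h arrays do not overlap, with EPS below no EPS, and at 0 min the ranges with and without EPS overlap.

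Cpt1b, the muscle form of the same transferase, had levels of -2.69 with EPS and -3.05 without EPS at 5 h, against -2.51 with EPS and -2.83 without EPS at 0 min. The EPS array was the higher at each time, by 0.36 at 5 h and 0.33 at 0 min (spot error 0.13 and 0.14). The second probe gave 0.26 at 5 h, just within its spot error, and 0.43 at 0 min (spot error 0.30). Cpt1b was lower at 5 h by a log2 difference of -0.18 after EPS and -0.21 without EPS. Thus, for EPS, Cpt1b had positive differences on both of its probes at both times, while the brighter Cpt1a probe had negative ones, and both forms had negative time differences on their brighter probes.

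Cpt2, the inner-membrane enzyme that restores acyl-CoA inside the mitochondrion, had levels of 1.20 with EPS and 1.02 without EPS at 5 h, against 1.34 with EPS and 1.54 without EPS at 0 min. The EPS array was the higher at 5 h and the lower at 0 min, with differences of 0.18 and -0.21 (spot error 0.06 and 0.08). Over time its difference was -0.14 after EPS, where the sign turned with median centring, and -0.53 without EPS. The dimmer Cpt2 probe, which lies in the other stretch of sequence shown above, gave the opposite signs for EPS, -0.15 at 5 h and 0.05 at 0 min, both within its spot error. For time it gave -0.29 after EPS and -0.09 without EPS.

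Acadl, the long-chain acyl-CoA dehydrogenase, had levels of 1.57 with EPS and 1.54 without EPS at 5 h, against 1.63 with EPS and 1.61 without EPS at 0 min. No neighbours in the order of its 4 arrays differed beyond the spot error, and the EPS difference was 0.02 at each time, with a sign that turned with quantile normalization. Acadm, the medium-chain dehydrogenase, had levels of 2.51 with EPS and 2.60 without EPS at 5 h, against 2.94 with EPS and 2.91 without EPS at 0 min. The 5 h arrays were below the 0 min arrays, with differences of -0.43 after EPS and -0.31 without EPS (spot error 0.05 and 0.06). The EPS difference of Acadm was -0.09 at 5 h (above 0 with median centring) and 0.03 at 0 min, the second within its spot error. A time difference of this size was thus seen for the medium-chain enzyme and not for the long-chain one, a contrast that was not tested.

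Across the 10 members, 22 of the 30 gaps between neighbours in the order of arrays were larger than the spot error, against 52.7% of such gaps over 18107 genes. The other 8 were 3 of Acadl, 2 of Fabp4 and 1 each of Angptl4, Cd36 and Acadm. The EPS array at 0 min was the highest for 6 members, the no EPS array at 0 min for 3, and the EPS array at 5 h for Angptl4 alone, against 29.6%, 27.0% and 26.0% of genes. These counts turn on the scaling: with quantile normalization they were 3, 6 and 1, and with median centring 5, 3 and 2. EPS differences larger than the spot error were seen for 7 members at 5 h, against 60.3% of genes, and for 8 at 0 min, against 54.1%. Time differences were for 10 members after EPS, against 79.9% of genes, and for 8 without EPS, against 71.9%. Of the 5 genes with a pair of probes, both probes gave the same direction in 3 for EPS at 5 h, 4 for EPS at 0 min, 4 for time after EPS and 5 for time without EPS. For the EPS difference at 5 h minus the one at 0 min they did in 2, and Cpt1a, Cpt1b and Cpt2 had opposite directions.

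The third question was whether the EPS difference at 5 h and the one at 0 min were unequal, taken as the first minus the second. No member reached 1.5-fold, where 3.37% of 18107 genes were higher and 4% lower, and none reached 2-fold, where 1.99% were. At a ratio 25% above 1 there were 2 members, Cpt2 (0.39) and Fabp4 (-0.48), against 22.7% of genes. Cpt2 was past that size on its brighter probe only. Its dimmer probe gave -0.20, within its spot error of 0.22, and the mean of probes gave 0.09. The value of Angptl4 was 0.05, within its spot error of 0.10, and with quantile normalization it was 0.15, past that error. The members' median was -0.01 and that of all genes -0.04.

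Other genes of the pathway were read from lists by role. None of them except G0s2 was past 1.5-fold for EPS: 0 of 15 measured genes of fatty acid transport, activation and droplets, 0 of 7 of the carnitine system, 0 of 17 of mitochondrial beta-oxidation, 0 of 7 of peroxisomal oxidation and 0 of 13 PPAR regulators and targets, at either time. G0s2, an inhibitor of the triglyceride lipase ATGL, was higher with EPS at 5 h by 0.60, as 1 of 8 measured genes of LPL handling and lipolysis, and 0 of 9 were past the size at 0 min. With normexp its value was 0.49, under the size. Over all genes the shares past the size were 2.06% higher and 2.96% lower at 5 h, and 2.01% and 3.34% at 0 min. Acsl4 had 0.55 at 5 h, and with median centring 1 of the 15 transport and droplet genes was past the size. In beta-oxidation, 5 of 17 genes were above 0 at 5 h and 14 of 17 at 0 min, against 43.4% and 54.5% of all genes. The list medians were -0.06 at 5 h (0.02 with median centring) and 0.05 at 0 min (0.003 with quantile normalization). On none of the 4 arrays were Lipe, Plin5 and Abcd2 well above background.

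Over time the lists differed more, and so did all genes. Of these, 7.9% were higher and 12.5% lower past 1.5-fold after EPS, and 6.6% and 9.38% without EPS. After EPS, 2 of 8 genes of LPL handling and lipolysis were lower at 5 h, G0s2 (-1.04) and the lipoprotein receptor Vldlr (-0.74). Without EPS, 2 of 9 were, G0s2 (-1.85) and the monoglyceride lipase Mgll (-0.67). Among transport and droplet genes 2 were higher and 2 lower of 15 after EPS, led by the droplet protein Plin4 (-1.91) and the acyl-CoA synthetase Acsl4 (1.01), and 1 was higher and 1 lower without EPS, Plin2 (0.68) and Plin4 (-1.37). In the carnitine system 2 of 7 were lower in both comparisons, the neuronal transferase Cpt1c (-0.93 after EPS and -0.73 without EPS) and Mlycd, which breaks down malonyl-CoA (-0.77 and -0.69). In beta-oxidation the thioesterase Acot13 alone was past the size, at -0.64 after EPS, and 0 of 17 were without EPS. The medians of that list were -0.31 after EPS and -0.12 without EPS (0.01 with median centring). All 7 measured peroxisomal genes were below 0 in both comparisons, against 44.3% of all genes. Under median centring Acot13 (-0.46), Vldlr (-0.56), Mgll (-0.54) and Mlycd without EPS (-0.55) were under the size. With normexp Cpt1c without EPS was under it, at -0.57. Among PPAR regulators and targets, Ppargc1a, a coactivator of oxidative genes, was lower, with -1.79 after EPS and -1.81 without EPS, and the receptor Ppard was higher, with 1.36 and 1.34. That list had 1 higher and 3 lower of 13 after EPS, and 1 higher and 2 lower without EPS. Klf15, lower in both, was under the size with normexp, quantile normalization and median centring. Each of these left 3 genes past the size after EPS and 2 without EPS, higher and lower together.

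**Figure D5:**
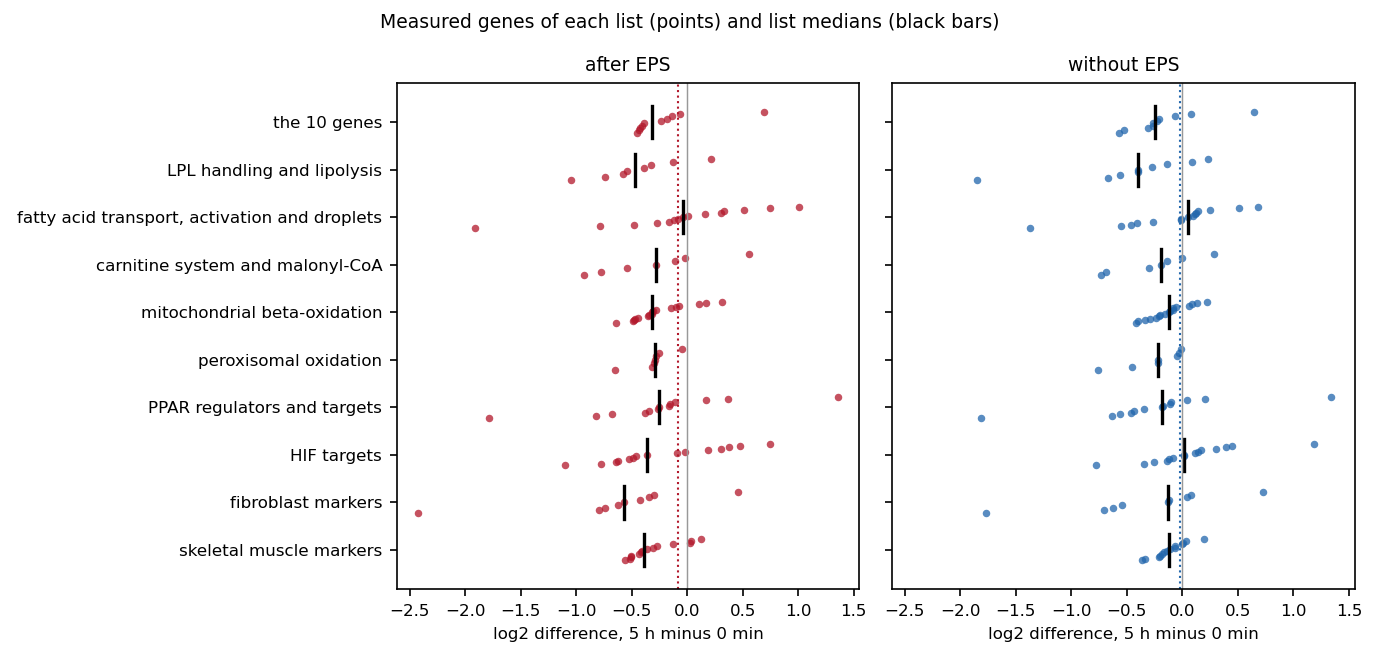
Log2 difference of level, 5 h minus 0 min, after EPS and without EPS, for the members and the measured genes of each pathway list, the HIF targets, and the fibroblast and skeletal muscle markers. Each point is 1 gene, black bars are list medians and dotted lines the median of all genes. List medians lie mostly below 0, and median centring turns the sign for transport and droplet genes after EPS, and for beta-oxidation, fibroblast and skeletal muscle genes without EPS.

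Angptl4 had the widest range of level over the 4 arrays among the members, so the genes most like it in pattern were looked up. Likeness was the Euclidean distance between levels centred on their mean over the 4 arrays, among 14065 genes with a symbol that were measured on all 4. The nearest were Sp8 (0.13), Noct (0.14), Mreg (0.17), Sgms2 (0.20) and Snhg17 (0.22). Noct, for example, had levels of 1.69 with EPS and 1.10 without EPS at 5 h, against 1.11 with EPS and 0.30 without EPS at 0 min. With 4 arrays such a likeness is a description only.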

How the data were processed

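Total RNA of 4 engineered muscle samples was read on 4 single-colour arrays. The authors deposited the intensity of each spot, background-subtracted and detrended by Agilent Feature Extraction 10.7.3.1, per the file headers. The deposited value table of the authors held the same intensities (all 44397 values equal within 0.1%), so its scale is linear and it gave no separate alternative. Of 43020 spots that are not controls, those with an outlier flag (112 to 141 per array) were left out, and no spot was saturated.

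Processed signals were taken to log2 and centred on each array's 75th percentile, with spots of a probe averaged and a gene read from its probe with the highest mean level. Probes well above background on the arrays compared were measured. By accession, 26055 probes were matched to RefSeq genes (GRCm38.p6, used for names and promoters) and 13374 were not, and 3358 were renamed. Probe positions are those of the array files (mm9). A signal below background on 1 side gives a bound against the dim probe's own level or the lowest level well above background, whichever is higher.

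With 1 array per group no test between groups was run and no p-value computed; the array number limits the precision. The spot error came from 268 measured probes of 399 printed 10 times. The code for levels and size calls was tested on simulated data, which bears on the code and not on these calls. The members, lists, size rule and tests were chosen with earlier results of these data known. Named by rule were the 10 members, list genes past 1.5-fold for EPS, at most 2 per list for time (some list genes are not reported here), and the 5 profiles nearest to the member of widest range. Alternatives were normexp with an offset of 50, quantile normalization, median centring, other filters on background, the mean of probes, and sizes of 2-fold and of a ratio 25% above 1. Software was Python 3.11.15, numpy 2.4.6, pandas 2.3.3, matplotlib 3.10.9, R 4.3.3 and limma 3.58.1.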

Additional observations from a re-analysis of the deposited data

Results flagged for a closer look

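For Cpt2 and Fabp3 the EPS difference had opposite signs at the 2 times. Cpt2 had 0.18 at 5 h and -0.21 at 0 min, a difference of effects of 0.39, and its dimmer probe had the opposite signs, -0.15 at 5 h and 0.05 at 0 min. Fabp3 had -0.11 at 5 h and 0.08 at 0 min, a difference of effects of -0.19, and with quantile normalization its value at 0 min was -0.02. With 1 array per group, neither difference was tested.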

How the results depend on the processing

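With 1 array per group nothing here measures the spread between tissues, so a size past 1.5-fold may lie within it. No paired analysis was possible because each group had 1 array and the labels give no replicate numbers, and no replicate could be left out. The number of members past 1.5-fold for EPS at 0 min was 1 with normexp (Angptl4) and 1 with quantile normalization (Fabp4), against 2 as reported. For time without EPS quantile normalization also left 1, Lpl (-0.59) in place of Angptl4 (0.57). At 2-fold the count was 0 for EPS at both times and for time after and without EPS. At a ratio 25% above 1 it was 2 for EPS at 5 h, 6 for time after EPS, 3 for time without EPS and 2 for the difference of EPS effects. The members' median moved to -0.015 for EPS at 0 min and to -0.23 for time after EPS with quantile normalization. With median centring it moved to 0.12 for EPS at 5 h, to -0.13 for time after EPS and to -0.11 for time without EPS. Of 300 single-gene values under 6 alternatives, 15 changed sign, each of them smaller than 1.5-fold as reported. They were 3 with normexp, 4 with quantile normalization, 6 with median centring and 2 with the mean of probes, of 50 values each. The other filters on background could change no value, because every member was well above background on every array. Over all genes, normexp gave 186 higher and 247 lower for EPS at 5 h, 186 and 203 at 0 min, 981 and 1699 for time after EPS, 833 and 927 for time without EPS, and 217 and 468 for the difference of effects. Without a filter on background these were 2026 and 2836, 2097 and 2395, 3045 and 5238, 2740 and 3935, and 3183 and 3553 of 31893 genes. Signal over background limits Fabp4, whose spot error was wide.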

Other observations

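Angptl4 is also known as a target of the hypoxia-inducible factors, and a list of 15 other such targets was read beside it. For EPS, 0 of 15 were at least 1.5-fold higher at either time. Of all genes, only 2.06% were at 5 h and 2.01% at 0 min, and 2.96% and 3.34% were lower by that size. The part of these factors in the Angptl4 values was not tested. At 5 h, 2 were lower with EPS, the vasodilator peptide gene Adm (-1.09) and Ankrd37 (-0.67, just under the size at -0.58 with median centring), and at 0 min Ankrd37 was lower (-0.93). The median of the list was -0.12 at 5 h and 0.24 at 0 min. Below 0 were 12 of 15 genes at 5 h, against 56.6% of all genes. Above 0 were 11 of 15 at 0 min, against 54.5% of all genes. Over time, 1 was higher and 4 were lower of 15 after EPS (median -0.36), against 7.9% and 12.5% of all genes. Without EPS 1 was higher and 1 lower (median 0.02), against 6.6% and 9.38%. Slc2a1, a glucose transporter, was higher at 5 h, by 0.75 after EPS and 1.18 without EPS. Pdk1, a kinase that restrains pyruvate entry to mitochondria, was lower, with -1.10 after EPS and -0.77 without EPS.

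Among markers of other cells, the leukocyte genes Cd14 and Cd68 were higher with EPS at 5 h, by 0.91 and 0.64, and Cd68 was lower with EPS at 0 min (-1.33). With normexp Cd68 was under the size at both times, at 0.11 and -0.58. The other measured markers of that list were at -0.13 (Csf1r), -0.17 (Itgam) and 0.08 (C1qb) at 5 h, and the median of the 5 was 0.08, or -0.10 with normexp. At 5 h the endothelial receptor gene Kdr (-0.63, and -0.54 with median centring), the fibroblast and pericyte receptor gene Pdgfrb (-0.87) and the cardiac troponin gene Tnni3 (-0.61, and -0.41 with normexp) were lower with EPS. In the lists of Kdr and Tnni3, Vwf (0.29) and Nppb (0.26) were above 0, and the list medians were -0.22 over 4 endothelial genes, -0.31 over 9 fibroblast genes and -0.40 over 3 cardiac genes. The endothelial junction gene Cldn5 was well above background without EPS at 5 h and on no other array, and was at least 7.22-fold lower with EPS at 5 h. The leukocyte gene Fcgr1 was at least 1.57-fold lower with EPS at 5 h and at least 1.39-fold higher with EPS at 0 min. It was well above background on 2 arrays only. Its processed signal was low there, at 24.4 without EPS at 5 h and 22.7 with EPS at 0 min.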
